A study of Mus musculus with 4 samples.

Results

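The metallothioneins and the carriers that set cellular zinc were followed in mouse kidney after cholestasis. The group holds 9 genes: Mt1, Mt2, Mtf1, Slc30a1, Slc39a4, Slc39a5, Slc39a8, Slc39a10 and Slc39a14. Its members were all non-control probes whose RefSeq accession belongs to 1 of these genes, which gave 11 of the 55668 analysed probes, and 9 of the 24043 features left after dim probes were removed and 1 probe was kept per gene. Total RNA was hybridised to 1-colour Agilent arrays, with 1 sample per array and 4 arrays in all. The BDL group had bile duct ligation, the surgical closure of the common bile duct that stops bile flow, and the sham group had a sham operation, with 2 biological replicates each and kidneys taken after 2 weeks. Strain, sex and age of the mice are not given in the sources used here. The samples are bulk kidney tissue, so fewer cells of a type and less RNA per cell cannot be told apart in any difference below.

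Metallothioneins are small cysteine-rich proteins that bind zinc and copper, and Mt1 and Mt2 are the widely expressed members in mouse. Their genes respond to zinc through the zinc finger factor MTF1, which binds short metal response elements, and also to glucocorticoids, to cytokines such as interleukin-6 and to oxidative stress. SLC39 (ZIP) carriers bring zinc into the cytosol and SLC30 (ZnT) carriers move it out of the cell or into vesicles. In the kidney, filtered and blood-borne metal is taken up by tubule cells, and metallothionein is abundant in the proximal tubule.

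Promoter windows of 4 genes are shown so that the letters of the metal response element core can be compared: Mt1, Mt2 and Slc30a1, which are known MTF1 targets and held the most matches, and Slc39a8 as a transporter with 1 match. The core of the metal response element was searched as TGCGCNC and TGCACNC on both strands, with overlapping matches counted separately, in windows of 300 bases that run from 250 before to 50 after the annotated gene start (RefSeq, GRCm38.p6). The windows of Mt1 (chr8:94178839-94179138, plus strand), Mt2 (chr8:94172368-94172667, plus strand), Slc30a1 (chr1:191906531-191906830, plus strand) and the second window of Slc39a8 (chr3:135825407-135825706, plus strand) read 5′ to 3′ as follows, with matches in capitals.
Mt1: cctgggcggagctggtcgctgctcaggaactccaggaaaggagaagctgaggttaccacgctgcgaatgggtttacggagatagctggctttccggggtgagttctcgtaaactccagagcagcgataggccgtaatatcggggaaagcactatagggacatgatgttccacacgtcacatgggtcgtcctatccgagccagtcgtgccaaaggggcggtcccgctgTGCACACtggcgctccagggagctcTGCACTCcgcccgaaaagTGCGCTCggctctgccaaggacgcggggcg
Mt2: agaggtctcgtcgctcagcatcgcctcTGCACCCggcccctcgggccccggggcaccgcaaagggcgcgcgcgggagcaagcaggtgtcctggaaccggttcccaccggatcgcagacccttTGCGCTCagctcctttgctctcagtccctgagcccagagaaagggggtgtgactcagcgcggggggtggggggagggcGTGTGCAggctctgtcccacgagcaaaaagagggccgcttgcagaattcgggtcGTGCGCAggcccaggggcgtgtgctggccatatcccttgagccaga
Slc30a1: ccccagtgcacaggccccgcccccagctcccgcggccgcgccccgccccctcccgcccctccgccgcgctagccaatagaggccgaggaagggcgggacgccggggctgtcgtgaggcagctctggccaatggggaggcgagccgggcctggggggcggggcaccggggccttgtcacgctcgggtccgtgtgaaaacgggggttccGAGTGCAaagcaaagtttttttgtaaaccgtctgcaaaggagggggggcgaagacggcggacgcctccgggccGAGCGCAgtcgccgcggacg
Slc39a8: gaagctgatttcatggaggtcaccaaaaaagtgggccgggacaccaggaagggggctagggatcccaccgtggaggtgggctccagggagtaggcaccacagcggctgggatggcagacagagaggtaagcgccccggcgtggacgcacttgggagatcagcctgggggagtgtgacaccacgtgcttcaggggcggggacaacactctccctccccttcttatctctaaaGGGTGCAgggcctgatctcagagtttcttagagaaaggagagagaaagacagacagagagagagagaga

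Mt2 held 4 matches and Mt1 held 3, against 1.97% of all 32851 promoter windows with 3 or more and 0.517% with 4 or more. The matches of Mt1 began 23 bases before and 2 and 20 bases after the annotated start, all on the strand of the gene. Those of Mt2 began 223, 128 and 50 bases before and 4 bases after it, on both strands. Slc30a1 held 2 matches, and 7.11% of all windows held at least 2. Slc39a8 and Slc39a5 held 1 each in 1 of their windows, and 25.7% of all windows held at least 1. No match lay in the windows of Mtf1 and Slc39a10. In all, 10 windows of 7 of the genes were searched, and Slc39a4 and Slc39a14 were not in the table. A match is a run of letters and not a measured binding site. Matches outside the windows were not counted, and whether the annotated starts are those used in kidney was not tested.

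**Figure D1:**
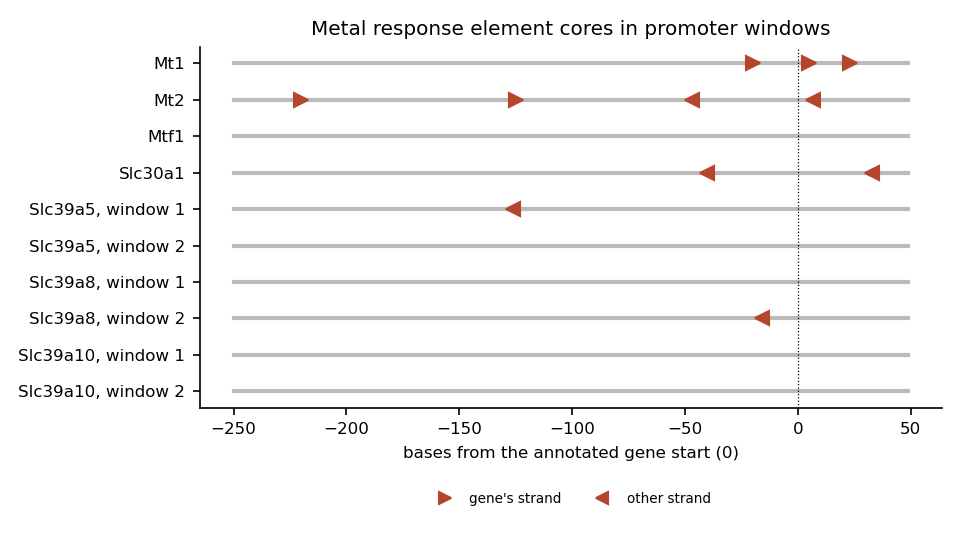
Positions of the metal response element core in the promoter windows of 7 genes, in bases from the annotated gene start (x axis), with 1 row per window and arrows for the strand of the match. Mt1 and Mt2 hold 3 and 4 matches, Slc30a1 holds 2, and Mtf1 and Slc39a10 hold 0.

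Each value is the log2 of a probe's signal over its array's 75th percentile, so that 0 marks a probe at that percentile and 1 unit is a doubling. A difference is the BDL mean minus the sham mean. Of the 11 probes, 10 were well above the local background on all 4 arrays. Across the arrays, 57.7% to 63.1% of spots were well above background and 0 were saturated. All 10 listed markers of the proximal tubule, the main uptake segment of the nephron, were measured, with a summed signal of 2149 to 2284 in BDL and 2127 to 2539 in sham kidneys in units of the 75th percentile. With limma's moderated test and Benjamini-Hochberg adjustment over 24043 features, 0 features passed an adjusted p of 0.05 (0% called, smallest adjusted p = 0.198), and 1352 had an unadjusted p under 0.05 (5.62%). The smallest two-sided p of an exact permutation test is 0.333 with 2 arrays per group, so none was run.

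Mt1 and Mt2 did not separate BDL from sham kidneys. Both were highest in BDL replicate 1 and lowest in BDL replicate 2, with the sham kidneys between them. The zinc and manganese carriers Slc39a8 and Slc39a14 stood lower in both BDL kidneys than in both sham kidneys, Slc39a5 stood higher in both, and the other genes overlapped between the groups. None of the 9 genes passed the threshold (limma adjusted p from 0.861 to 0.983), and 1 of them, Slc39a8, lower in BDL, had an unadjusted p under 0.05. Among all features, 2.59% had such a p and stood higher in BDL, and 3.04% had one and stood lower. The groups did not overlap in 3 of the 9 genes (1 higher and 2 lower in BDL), against 36.6% of all features (17.4% higher and 19.2% lower), so that this share is near the background. The median difference was -0.033 over the 9 genes and -0.011 over all features, and the median size of the difference was 0.15 and 0.21.

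**Figure D2:**
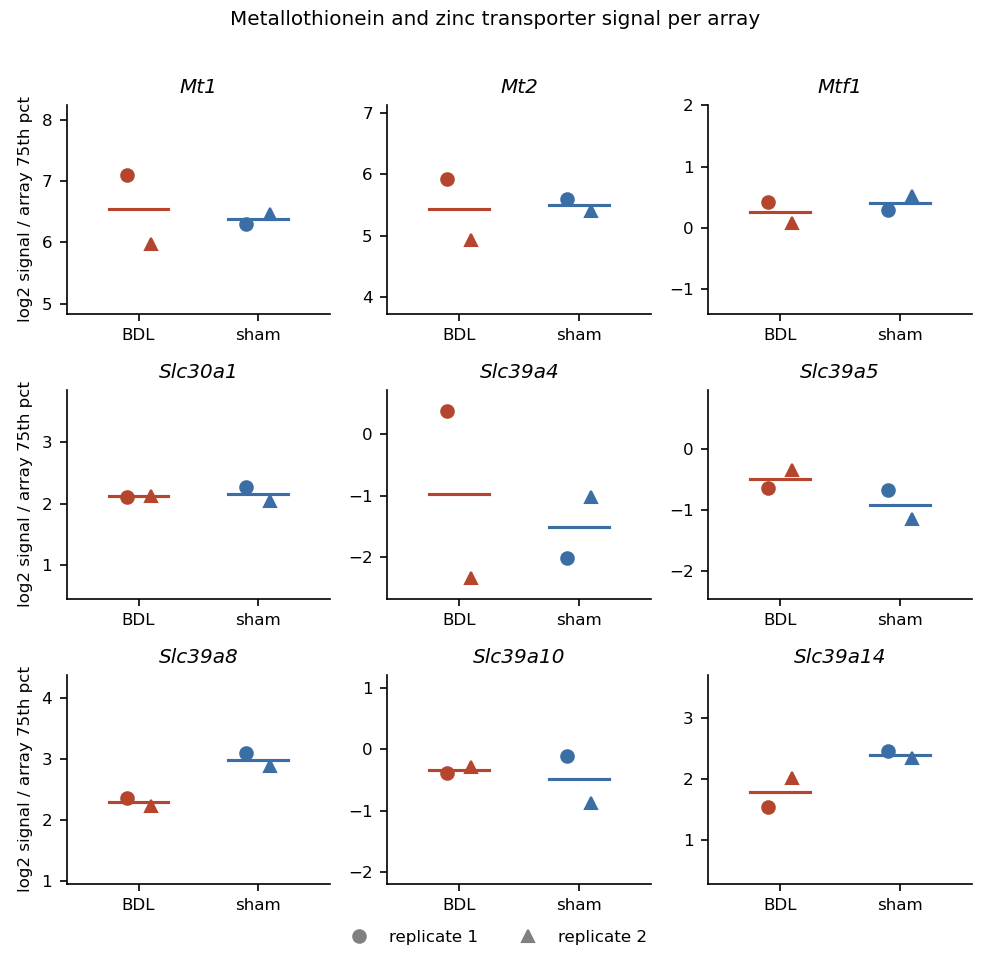
Signal of the 9 genes on each array (y axis, log2 signal relative to the 75th percentile of the array, same span in every panel), with BDL in red on the left, sham in blue on the right, circles and triangles for replicates 1 and 2, and lines for group means. Mt1 and Mt2 have both sham kidneys between the BDL kidneys, while Slc39a8 and Slc39a14 have both BDL values below both sham values.

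Mt1, which encodes a zinc and copper buffer of the cytosol, was 7.10 and 5.97 in BDL kidneys, against 6.31 and 6.46 in sham kidneys. The BDL kidneys were thus 1.13 apart and the sham kidneys 0.16 apart, and the groups overlapped. For comparison, the median distance between replicates over all features was 0.23 in BDL and 0.31 in sham kidneys, and 4.33% of features had BDL replicates at least as far apart as those of Mt1. The mean was 6.54 ± 0.80 in BDL and 6.39 ± 0.11 in sham kidneys (SD, n = 2 each). The difference of 0.15 (SE 0.42, limma adjusted p = 0.960) had a 95% interval that ran between -0.96 and 1.27, which is 0.514-fold to 2.41-fold. Without BDL replicate 1 the difference was -0.41, and without BDL replicate 2 it was 0.72.

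Mt2, which encodes the companion metal-binding protein, was 5.92 and 4.93 in BDL kidneys, against 5.60 and 5.40 in sham kidneys. It followed the same order within the BDL group as Mt1, replicate 1 above replicate 2 by 0.99, and the groups overlapped. The mean was 5.43 ± 0.70 in BDL and 5.50 ± 0.14 in sham kidneys (SD, n = 2 each), a difference of -0.073 (SE 0.38, limma adjusted p = 0.981) whose 95% interval ran between -1.09 and 0.94. It was -0.57 without BDL replicate 1, 0.42 without BDL replicate 2 and 0.024 without sham replicate 1. Both probes were bright but far from the scanner's limit, at most 13.2% of the saturation value for Mt1 and 6.09% for Mt2. Mt1 and Mt2 are next to each other in the RefSeq gene order of chromosome 8, and their transcripts are close in sequence. Whether a probe of one also binds the other was not tested.

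The nearest profiles to Mt1 and Mt2 were sought as the smallest Euclidean distance over the 4 arrays, after subtracting the mean of each gene, among features with a symbol. To Mt1 these were Vmn1r195 (distance 0.05), Celf2 (0.11), Ulk4 (0.11), Sbsn (0.14) and Cdon (0.14). To Mt2 they were Wipi2 (0.08), Sptssa (0.11), Rpl13 (0.12), Gm6607 (0.13) and Rpl11 (0.14), of which Rpl13 and Rpl11 encode ribosomal proteins. Mt1 and Mt2 lay 0.35 from each other, so that Mt2 ranked 85 in likeness to Mt1 and Mt1 ranked 134 in likeness to Mt2. With 4 arrays many genes come this close.

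Mtf1, which encodes the zinc-sensing transcription factor, had 3 probes. The brightest gave 0.43 and 0.08 in BDL kidneys, against 0.29 and 0.53 in sham kidneys, with overlapping groups and a difference of -0.15 (SE 0.23, limma adjusted p = 0.930), which was 0.021 without BDL replicate 2. A dimmer probe gave -1.90 and -1.88 in BDL kidneys, against -2.11 and -2.07 in sham kidneys, without overlap and with the opposite sign (0.21, SE 0.19, limma adjusted p = 0.893 over all retained probes). The probes therefore disagree on the direction of a small difference. The third was well above background in sham replicate 2 alone, with -7.09 and -6.22 in BDL kidneys, against -6.93 and -4.64 in sham kidneys, and was not tested.

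Slc30a1 encodes ZnT1, the zinc exporter of the plasma membrane and a known target of MTF1. It was 2.10 and 2.13 in BDL kidneys, against 2.26 and 2.04 in sham kidneys. The BDL values lay between the sham values, and their mean lay -0.033 (SE 0.20, limma adjusted p = 0.983) from the sham mean. The 95% interval ran between 0.677-fold and 1.41-fold, and the sign turned without sham replicate 1 (0.081) and with normexp background correction (0.024). Its BDL kidneys were 0.025 apart, against the 1.13 of Mt1 and the 0.99 of Mt2. Slc39a10 encodes ZIP10, an importer whose gene is repressed through MTF1 when zinc is ample. It was -0.39 and -0.29 in BDL kidneys, against -0.10 and -0.88 in sham kidneys, with both BDL values between the sham values. Its difference was 0.15 (SE 0.32, limma adjusted p = 0.947), and it was -0.24 without sham replicate 2.

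Slc39a8 encodes ZIP8, an importer of zinc, manganese, iron and cadmium. It was 2.36 and 2.23 in BDL kidneys, against 3.10 and 2.88 in sham kidneys, so that both BDL kidneys lay well below both sham kidneys. The mean was 2.30 ± 0.09 in BDL and 2.99 ± 0.15 in sham kidneys (SD, n = 2 each). The difference of -0.69 (SE 0.20) corresponded to 0.619-fold, with a 95% interval from 0.427-fold to 0.898-fold that is not adjusted for the number of features. The limma p was 0.0220 before and 0.861 after adjustment. Leaving out each array in turn gave -0.80 to -0.58, and the other settings gave -0.69 to -0.63. The limma adjusted p lay between 0.407 and 1.00 over all of these.

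Slc39a14 encodes ZIP14, the closest relative of ZIP8, which carries the same metals and is raised by interleukin-6 in mouse liver. It was 1.54 and 2.02 in BDL kidneys, against 2.45 and 2.34 in sham kidneys. Both BDL values were again the lower ones, but BDL replicate 1 stood 0.49 below BDL replicate 2. The mean was 1.78 ± 0.35 in BDL and 2.40 ± 0.08 in sham kidneys (SD, n = 2 each), and the difference of -0.62 (SE 0.25, limma adjusted p = 0.872) corresponded to 0.652-fold, with a 95% interval from 0.413-fold to 1.03-fold. Without BDL replicate 1 it was -0.37, and without BDL replicate 2 it was -0.86.

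Markers of the last (S3) segment of the proximal tubule stood lower in the same arrays. Of 7 listed genes, all measured, 6 lay below sham in both BDL kidneys and 1, Slc5a1, lay above, against 19.2% and 17.4% of all features, and the median difference was -0.54. Their summed signal was 337 and 408 in BDL, against 667 and 563 in sham kidneys. The list of the whole proximal tubule had a median difference of -0.025. Other marker lists stood lower too. All 6 thick ascending limb markers were lower in group mean (median -0.24), 2 of them without overlap. Of 5 measured hepatocyte markers, 4 were lower and 1 higher (median -0.70), and 3 were lower without overlap. Of 5 collecting duct principal cell markers, 4 were higher and 1 lower (median 0.035), and 1 was higher without overlap. Markers of injured tubule cells, 8 of 8 measured, were all higher in group mean, with a median difference of 1.06 and summed signals of 163 and 115 in BDL, against 110 and 70.9 in sham kidneys. Without overlap, 5 of the 8 were higher and 0 lower, against 17.4% and 19.2% of all features. Sox9, among these 5, was well above background on 0 sham arrays, with a difference of 2.42 that rests on dim sham values. Krt20 was well above background on 1 sham array. Both genes passed the filter on dim probes through the BDL group alone, and they count in the numbers and the median of this list. Krt20, an epithelial keratin, was 1.81 and -4.82 in BDL kidneys, against -3.54 and -4.93 in sham kidneys, and Krt18, another keratin, was 5.34 and 3.28 in BDL kidneys, against 2.72 and 3.22 in sham kidneys. Both, named after their values were seen, stood out in BDL replicate 1, the array with the highest urothelial markers (summed signal 57.8 and 1.29 in BDL, against 2.89 and 9.24 in sham kidneys), whose part in this list was not tested. Interferon response genes, 10 of 12 measured, stood lower in BDL in 9 and higher in 1, with a median difference of -1.57. The groups did not overlap in the 9 lower ones, against 19.2% of all features. Their summed signal was 9.26 and 7.05 in BDL, against 30.4 and 11.7 in sham kidneys, highest in sham replicate 1. Cytokine and STAT3 response genes, the class through which ZIP14 is raised in liver, were measured in 17 of 20 cases, and 15 of these stood higher in BDL. Their median was 0.55, or 0.82 without sham replicate 1, and 0 passed the threshold. Among them, Osmr, a cytokine receptor gene, was 1.16 and 1.21 in BDL kidneys, against -0.22 and -0.04 in sham kidneys (difference 1.32, SE 0.19, limma adjusted p = 0.574). Lrg1, which encodes a secreted glycoprotein, was 2.28 and 1.89 in BDL kidneys, against 0.86 and 0.19 in sham kidneys (1.56, SE 0.32, limma adjusted p = 0.720). Both genes were higher in each BDL kidney than in either sham kidney. Without overlap, 10 of the 17 genes were higher in BDL and 0 lower, against 17.4% and 19.2% of all features. Saa3, a serum amyloid gene, was at least 2.38-fold higher in BDL (limma adjusted p = 0.254), with -3.99 and -3.40 in BDL kidneys, against -6.74 and -7.16 in sham kidneys, where it was not well above background. This bound sets the BDL mean against the lowest signal well above background on each sham array. Saa3 passed the filter on dim probes through the BDL group alone, and it counts in the numbers and the median of the cytokine list. The part of these lists in the differences of Slc39a8 and Slc39a14 was not tested.

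Slc39a5 encodes ZIP5, an importer of the basolateral membrane of intestinal and pancreatic cells in mouse. It was -0.65 and -0.34 in BDL kidneys, against -0.68 and -1.15 in sham kidneys. Both BDL values were higher, but BDL replicate 1 and sham replicate 1 were nearly level. The difference was 0.42 (SE 0.26, limma adjusted p = 0.872), and it was 0.18 without sham replicate 2.

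Slc39a4 encodes ZIP4, the importer for dietary zinc in the intestine. It was 0.38 and -2.35 in BDL kidneys, against -2.02 and -1.02 in sham kidneys. BDL replicate 1 stood far above the other 3 arrays, and 0.566% of features had BDL replicates at least as far apart as the 2.73 of Slc39a4. The difference of 0.54 (SE 0.98, limma adjusted p = 0.940) had a 95% interval from -2.06 to 3.14. Without BDL replicate 1 it was -0.83, and without BDL replicate 2 it was 1.91.

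Markers of the urothelium, the lining of the renal pelvis, took the same order over the arrays as Slc39a4. Of 7 listed genes, 6 were measured, and Upk3b was left out as too dim. Their median was 2.49 and -3.31 in BDL kidneys, against -1.65 and 0.45 in sham kidneys. BDL replicate 1 was also highest in the 3 measured adipocyte markers of 6 listed, with a summed signal of 126 and 1.29 in BDL, against 9.24 and 2.53 in sham kidneys, while Adipoq, Plin1 and Lep were not measured. In the red blood cell markers, 7 of 9 measured, the sum was 1520 and 859 in BDL, against 755 and 608 in sham kidneys. The same array held the highest Mt1 and Mt2. The part of these tissues in the values of Slc39a4, Mt1 and Mt2 was not tested.

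**Figure D3:**
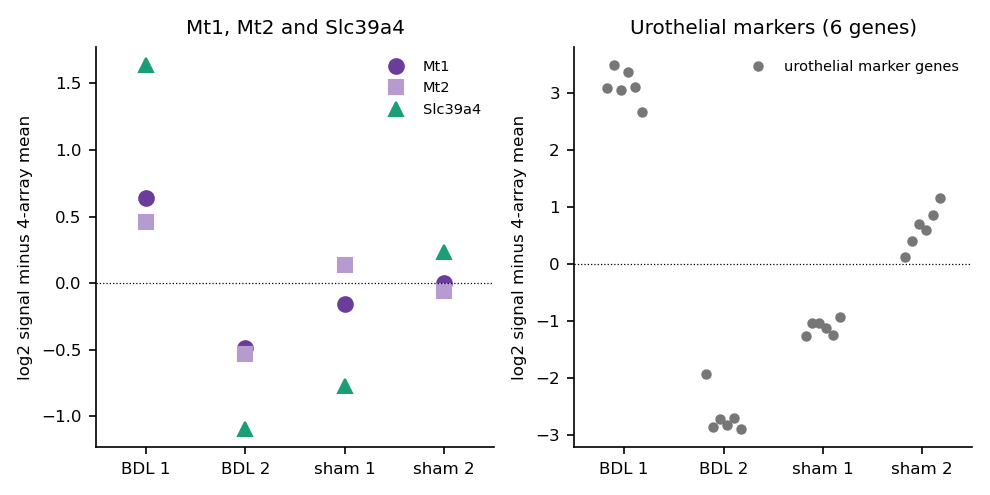
Left, Mt1, Mt2 and Slc39a4, and right, the 6 measured urothelial markers, on each of the 4 arrays (y axes, log2 signal minus the mean of the gene over the 4 arrays, with different spans). BDL replicate 1 is highest and BDL replicate 2 lowest in every gene shown.

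The other carriers of both families are given beside all features, of which 48.6% stood higher in BDL. Of 9 other SLC39 importers, 8 were measured, 2 stood higher and 6 lower in BDL, 0 passed the threshold in either direction, and the median difference was -0.16, or -0.084 without BDL replicate 2. Without overlap between the groups, 2 of the 8 were higher and 3 lower, against 17.4% and 19.2% of all features. Slc39a9, a carrier of the secretory pathway, was -3.58 and -3.45 in BDL kidneys, against -4.50 and -4.42 in sham kidneys. That is a dim probe, and both BDL values were higher, by 0.95 (SE 0.19, limma adjusted p = 0.720). Slc39a11, which encodes ZIP11, was 3.65 and 4.20 in BDL kidneys, against 5.22 and 4.65 in sham kidneys, lower in both, with a difference of -1.01 (SE 0.32, limma adjusted p = 0.861). Slc39a1, a zinc importer of the plasma membrane, was 4.43 and 4.50 in BDL kidneys, against 4.17 and 4.04 in sham kidneys (0.36, SE 0.19, limma adjusted p = 0.872). Slc39a12 was not measured above background.

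Of 9 other SLC30 exporters, 6 were measured, with 2 higher and 4 lower in BDL, 0 past the threshold and a median difference of -0.11, which was 0.14 without sham replicate 1 and -0.39 without sham replicate 2. The 4 of 6 that stood lower are near the share of all features, and the sign of the median depended on the sham array left out. Slc30a6, a subunit of a zinc carrier of the early secretory pathway, was -0.13 and -0.03 in BDL kidneys, against 0.41 and 0.26 in sham kidneys (-0.41, SE 0.19, limma adjusted p = 0.872). Slc30a2, a vesicular zinc carrier, was 1.62 and 1.27 in BDL kidneys, against 3.23 and 1.58 in sham kidneys, with sham replicate 1 alone high and a difference of -0.96 (SE 0.59, limma adjusted p = 0.872). Slc30a7, a zinc carrier of the Golgi, had a difference of 0.27 (SE 0.25) at its brightest probe, and its probes disagreed. Of its other retained probes, both dimmer, one gave 1.06 (SE 0.42) without overlap and the other -0.47 (SE 0.41) with overlap, and neither passed the threshold over all retained probes (limma adjusted p = 0.867 and 0.888). The probe with 1.06 was well above background on 1 sham array. It passed the filter on dim probes through the BDL group alone, which favours a higher BDL value. Slc30a3, Slc30a8 and Slc30a10, known for neurons, pancreatic islets and manganese export, were not well above background in either group. Among the other metallothioneins, Mt3 was 0.56 and 0.36 in BDL kidneys, against 0.67 and 0.24 in sham kidneys, and Mt4 was -2.58 and -2.59 in BDL kidneys, against -2.66 and -2.93 in sham kidneys. Neither passed the threshold (limma adjusted p = 0.999 and 0.900).

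**Figure D4:**
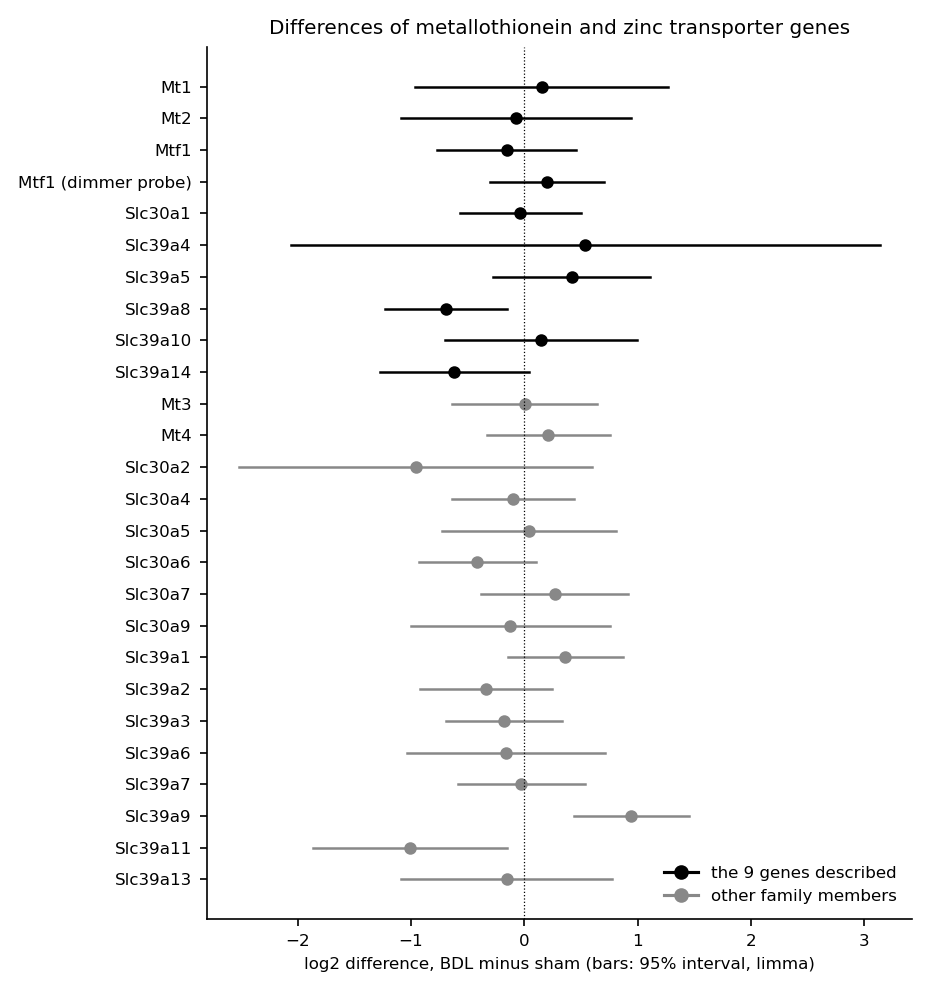
Difference between BDL and sham kidneys (x axis, log2) for the 9 genes described, with a second Mtf1 probe, in black and for the other measured metallothioneins and zinc carriers in grey. Points are differences and bars are 95% intervals from limma, not adjusted for the number of features. The intervals of Slc39a8, Slc39a9 and Slc39a11 lie to 1 side of 0.

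Copper, iron and the known inducers of metallothionein were described from lists of related genes. Of 16 copper genes, 14 were measured, with 7 higher and 7 lower in BDL, a median of 0.026 (-0.094 without sham replicate 2, 0.10 without sham replicate 1) and 0 past the threshold. Cp, which encodes the copper protein ceruloplasmin, was 1.78 and -0.10 in BDL kidneys, against 0.089 and -0.66 in sham kidneys, with overlapping groups (1.12, SE 0.70). The metalloreductase genes Steap2 and Steap3 had differences of 0.34 (SE 0.20) and -0.39 (SE 0.23), without overlap. Of the 14 copper genes, 3 were higher and 3 lower without overlap, against 17.4% and 19.2% of all features. Of 16 iron and manganese genes, 14 were measured, with 10 higher and 4 lower, a median of 0.21 (0.090 without sham replicate 2) and 0 past the threshold. Without overlap, 6 of the 14 were higher and 0 lower, against 17.4% and 19.2% of all features. Trf, which encodes the iron carrier transferrin, was 3.76 and 2.18 in BDL kidneys, against 1.63 and 1.51 in sham kidneys (1.40, SE 0.56, limma adjusted p = 0.872), highest in BDL replicate 1. The same array was highest in Hamp2, a hepcidin gene (1.90, SE 1.00), and in Slc25a37, the mitochondrial iron importer (0.95, SE 0.47).

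Glucocorticoid-induced genes, all 15 measured, stood higher in BDL in 12 and lower in 3, with a median of 0.17 (0.49 without BDL replicate 1) and 0 past the threshold. Without overlap, 6 of the 15 were higher and 1 lower, against 17.4% and 19.2% of all features. Tsc22d3, a glucocorticoid-induced leucine zipper gene, was 4.37 and 4.73 in BDL kidneys, against 3.57 and 3.63 in sham kidneys (0.95, SE 0.22, limma adjusted p = 0.760). Sgk1, a kinase of sodium transport, was 3.52 and 3.88 in BDL kidneys, against 2.72 and 3.01 in sham kidneys (0.83, SE 0.24, limma adjusted p = 0.861). Angptl4, an inhibitor of lipoprotein lipase, was 4.57 and 5.22 in BDL kidneys, against 3.48 and 4.05 in sham kidneys (1.13, SE 0.34, limma adjusted p = 0.861). In these 3 genes BDL replicate 2 was the higher BDL kidney, as in most of the list. Pdk4 (1.92 and 0.54), Cdkn1a (0.21 and -0.84) and Sesn1 (0.92 and 0.50) were higher in BDL replicate 1. The part of this list in the values of Mt1 and Mt2 was not tested. Oxidative stress genes of the NRF2 class, 12 of 14 measured, stood higher in 3 and lower in 9, with a median of -0.10 (0.15 without sham replicate 1, -0.39 without sham replicate 2) and 0 past the threshold. Gclc, which encodes the catalytic subunit for glutathione synthesis and is a reported MTF1 target in mouse, was 4.40 and 4.75 in BDL kidneys, against 5.43 and 5.16 in sham kidneys (-0.72, SE 0.23, limma adjusted p = 0.862). Me1, the cytosolic malic enzyme, stood lower (-0.42, SE 0.25) and Osgin1, an oxidative stress response gene, stood higher (0.68, SE 0.23).

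**Figure D5:**
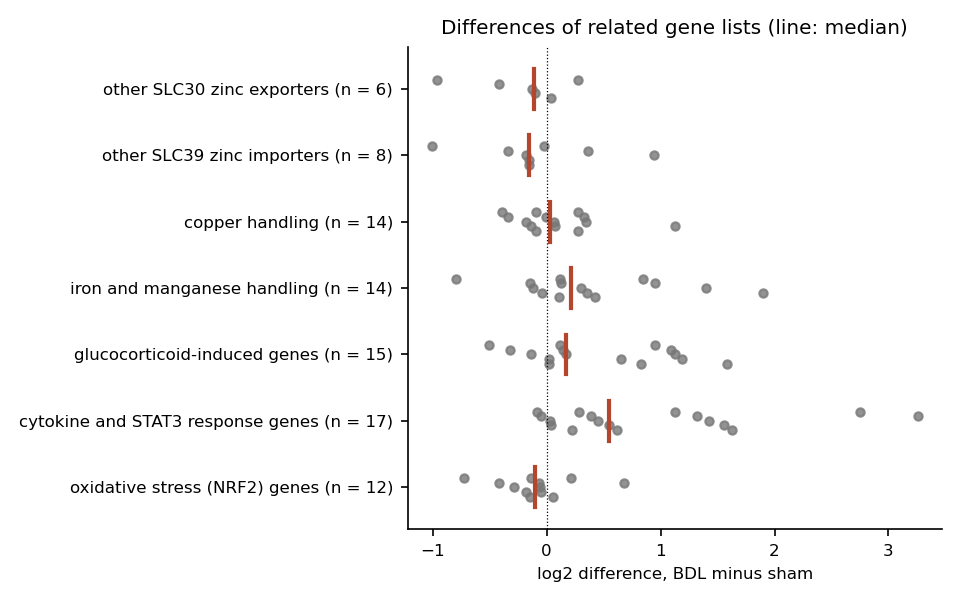
Difference between BDL and sham kidneys (x axis, log2) for each measured gene of 7 related lists, with 1 point per gene and a red line at the median of the list. The medians run from -0.16 for the other SLC39 importers to 0.55 for the cytokine and STAT3 response genes.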

How the data were processed

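Kidney RNA of 2 BDL and 2 sham samples was measured with Cy3 on 1 array each, grouped by the labels. The submitters' processing notes name Agilent Feature Extraction 11.0.1.1 for reading the spots. Per the file headers, the authors' processed signal is a linear intensity after background subtraction and spatial detrending, and no scaling between arrays was applied to it. Median spot and background intensities (raw) and quality flags were also read. The authors' deposited value table gives, on each array, the processed signal over a fixed number (709 to 940), over 35228 of the analysed probes, with column medians of 0.329 and 0.330 for BDL and 0.328 and 0.339 for sham. It is linear and not centred per gene, and the quantity that sets each constant stays unknown. Each constant lay close to the 75th percentile signal of its array (712 to 945). As a setting, this table is therefore nearly the same scaling as the one used here. The 4 arrays share 1 slide and 1 scan time.

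From these, log2 processed signals minus the 75th percentile of each array were computed without control and outlier spots. Probes well above background on both arrays of a group were retained (32280), the brightest per gene was used, and names came from RefSeq GRCm38.p6, which matched 27229 probes. The fit used limma 3.58.1 in R 4.3.3 (operation as the only term, two-sided, Benjamini-Hochberg over 24043 features) and was tested on simulated data. The number of arrays limits the precision. Named are all members with every probe, up to 3 genes per related list with the smallest p and the 5 nearest profiles to Mt1 and to Mt2. Some further genes are named to show a limit of their list, after their values were seen. The genes and lists were chosen with earlier results of these data known.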

Additional observations from a re-analysis of the deposited data

How the results depend on the processing

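The settings tried were normexp background correction, quantile normalization, the authors' deposited table, another percentile, no filter or a stricter filter on dim probes, all retained probes, the replicate number as a block, and each array left out. In all 12 of them limma called 0 features, while 844 (without BDL replicate 1) to 2793 (without sham replicate 2) had an unadjusted p under 0.05, against 1352 as reported. Of 108 values for the 9 genes, 100 kept their direction and 8 turned. The filter settings, all retained probes and the replicate block leave each difference as reported by construction, so there no direction could turn. The deposited table and the other percentile shift all 9 genes by the same small amount. The tally is therefore no measure of how stable the directions are. The differences without 1 array ran from -0.41 to 0.72 for Mt1, -0.57 to 0.42 for Mt2 (0.024 without sham replicate 1), -0.33 to 0.021 for Mtf1, -0.15 to 0.081 for Slc30a1, -0.83 to 1.91 for Slc39a4, 0.18 to 0.65 for Slc39a5, -0.80 to -0.58 for Slc39a8, -0.24 to 0.54 for Slc39a10 and -0.86 to -0.37 for Slc39a14. With normexp, Slc30a1 turned to 0.024, and the cause was not tested.

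Replicates with the same number deviated together with a correlation of 0.06 across features. The labels do not say whether they share more than a number, and a low correlation over all features cannot tell. With the replicate block, 0 features were called (smallest adjusted p = 0.314) and Slc39a8 stood at -0.69 (limma adjusted p = 0.814). Slide and scan time could not be fitted as a block, since all arrays share them. Signal over background limited the dimmest Mtf1 probe, and 2 arrays per group limit every value.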
